A study of Mus musculus with 24 samples.

Results

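Short interspersed elements (SINEs) were examined as the 36 rows of the deposited RNA count tables whose name begins with SINE, among 1035 repeat rows and 56326 rows in all. Each row sums the reads of every annotated genomic copy of 1 SINE type. By the family given in the row names, 15 types belonged to B1 (SINE/Alu), 5 to B2, 4 to B4, 4 to ID, 4 to MIR and 4 to other families.

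SINEs are short retrotransposons that code for no protein and move with the machinery of L1 elements. They carry an internal promoter for RNA polymerase III, and B1 descends from 7SL RNA, the RNA of the signal recognition particle, while B2 and ID descend from tRNAs. B1 and B2 RNA is known to be abundant in early mouse embryos, and many copies also lie in introns and untranslated regions, where they are copied as part of longer RNA polymerase II transcripts.

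The embryos came from 8-week-old B6D2F1 females mated to B6D2F1 males, labelled with the background strain BDF2. Zygotes of every group had been microinjected into the male pronucleus with antisense oligonucleotides (ASOs) at 20 µM. Control zygotes received a scrambled ASO and MERVL-KD zygotes a mix of 3 ASOs against MERVL, an endogenous retrovirus transcribed at the 2-cell stage. Total RNA-seq libraries came from pools of 30 embryos without zona pellucida at the 2-cell (1.5 dpc), 4-cell and 8-cell stages (both labelled 2.5 dpc). Each of the 6 groups had 2 libraries, and a pool hides differences between embryos. The paper reports a developmental delay of MERVL-KD embryos and states that cleavage stages were checked under the microscope. Embryos were thus pooled by cleavage stage, and the 4-cell and 8-cell pools of both conditions carry the same day label. A pool may therefore hold the slower or the faster embryos of its condition, and the part of this selection was not tested.

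The sequences of the injected ASOs show what each group received. On either strand of the 4 sequences searched (a copy of B1_Mus2, 2 copies of AmnSINE1 and Bc1), the best match had 7 mismatches of 20 bases for the scrambled ASO. For the MERVL ASOs it had 8 or 9. Other SINE copies, those of the B2 and B4 families among them, were not searched, so the search cannot show whether an ASO matches SINE RNA.
MERVL-ASO1: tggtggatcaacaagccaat
MERVL-ASO2: catttgtctgtttaccacga
MERVL-ASO3: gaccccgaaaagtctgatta
Scramble-ASO: agcgcgggtattgaaccagg

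The B1_Mus2 copy that RefSeq annotates on GRCm38, at chr7:103823699-103823836, is shown as an example of the young B1 types whose values follow. Its 138 bases are written on the plus strand of the genome. It lies in no GENCODE gene, and the nearest gene is Hbb-bs at 2698 bp.
B1_Mus2 copy: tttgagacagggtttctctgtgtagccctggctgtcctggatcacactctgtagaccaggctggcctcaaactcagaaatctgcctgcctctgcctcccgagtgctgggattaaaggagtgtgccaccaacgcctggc

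Bc1, at chr7:144914470-144914637 on the plus strand, is the 168-base RNA gene related to the ID family and is shown because it was counted beside the ID rows.
Bc1: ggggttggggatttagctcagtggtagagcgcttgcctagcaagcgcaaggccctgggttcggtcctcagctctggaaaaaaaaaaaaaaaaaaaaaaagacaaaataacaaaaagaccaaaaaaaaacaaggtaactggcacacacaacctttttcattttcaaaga

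Totals ranged from 28167085 to 41482526 counts per library, and repeat rows took from 15.8% to 25.2% of them. MERVL-int, the targeted internal region, had a log2 fold change in MERVL-KD of −5.72 (2-cell), −5.53 (4-cell) and −5.40 (8-cell). The 6 markers of the 2-cell embryo summed to between 416 and 504 CPM in control 2-cell libraries and to at most 19.2 CPM in control 4-cell and 8-cell libraries. They summed to between 223 and 288 CPM in MERVL-KD 2-cell libraries, and the 6 markers of maternal oocyte RNA to between 741 and 835 CPM there, against 1149 and 1228 CPM in control. Of these 6 maternal markers 3 passed as lower, against 7.23% of all features. Zp3 went the other way, with 29.2 and 26.3 CPM in MERVL-KD and 21.5 and 24.1 CPM in control. The 8 markers of cumulus or granulosa cells, which surround the oocyte, summed to between 0.256 and 4.05 CPM, and from 0 to 4 of them had no count in both libraries of a group. Values in CPM are library-scaled counts (trimmed mean of M-values, TMM, over the 12 libraries together).

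SINE rows took a larger share of the counts in 4-cell than in 2-cell embryos. Control embryos had a share of 2.91% and 2.82% at the 2-cell stage, of 8.70% and 8.43% at 4 cells and of 5.75% and 6.18% at 8 cells. For MERVL-KD it was 3.92% and 4.23%, then 8.99% and 11.1%, then 8.81% and 7.53%. Both MERVL-KD libraries lay above both control libraries at each stage, with means of 4.08% ± 0.217 against 2.87% ± 0.0657 at the 2-cell stage (SD, n = 2). The means were 10.02% ± 1.46 against 8.57% ± 0.192 in 4-cell and 8.17% ± 0.905 against 5.96% ± 0.302 in 8-cell embryos. The MERVL-KD 4-cell replicate 2 stood apart from replicate 1. Without it, the KD-to-control ratio of the share at the 4-cell stage was 1.05 in place of 1.17. These shares were not tested, and they depend on what else was counted. At the 2-cell stage MERVL-int itself took 6.33% and 6.57% of the counts of control and 0.157% and 0.143% of those of MERVL-KD. In pooled embryos, a change in every cell and a change in a part of the cells cannot be told apart.

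**Figure D1:**
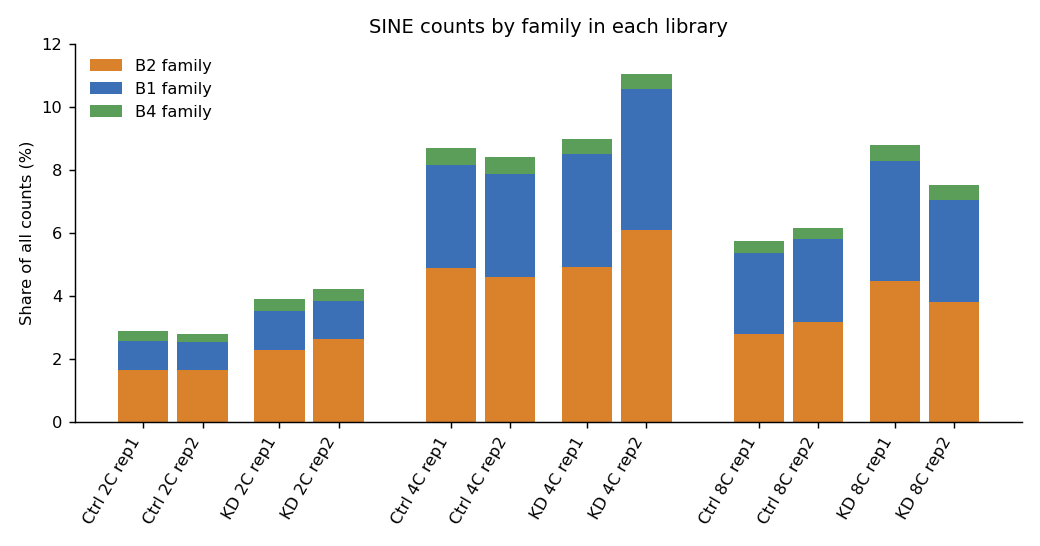
Share of all counts (%) taken by the B2, B1 and B4 families in each of the 12 libraries, as stacked bars; the ID, MIR and other types together were too small to draw. The control 2-cell bars are the lowest, near 2.9%, and the MERVL-KD 4-cell replicate 2 bar is the highest, at 11.1%.

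A few types held nearly all SINE counts. The 6 most abundant types (B2_Mm1a, B2_Mm1t, B1_Mus1, B1_Mus2, B2_Mm2 and B1_Mm) took 77.1% of them and the first 12 types 93.7%. At the other end, ID4, ID4_, ID2, LFSINE_Vert, AmnSINE2 and MamSINE1 stayed under 50 counts in every library, with at most 41, 30, 13, 13, 9 and 6 counts. AmnSINE2 and MamSINE1 did not pass the filter on low counts of the main fits.

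The balance between families shifted with stage. B1 types held 31.5% and 31.3% of the SINE counts in control 2-cell libraries, 37.5% and 38.5% in control 4-cell libraries and 44.6% and 42.2% in control 8-cell libraries. The MERVL-KD libraries held 31.2% and 28.9%, then 39.8% and 40.2%, then 43.4% and 43.0%. B2 types stayed the larger family in every library, between 49.0% and 62.3% of the SINE counts. B4 types, which combine B1-like and ID-like parts, held between 4.43% and 10.9%.

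Levels were compared between types per kb of mean copy length, which does not adjust for the number of copies. Only uniquely aligned reads were counted, so the levels of young types with nearly identical copies may be too low beside those of older types. In control 2-cell libraries B2_Mm1a led with 33267 CPM per kb, followed by B2_Mm1t (23268), B2_Mm2 (22992), B1_Mus1 (20419), B1_Mus2 (17955), B3 (17557) and B1_Mm (9062). In control 4-cell libraries B2_Mm1a still led with 98624 CPM per kb, but B1_Mus1 (72348) and B1_Mus2 (70527) came next, ahead of B2_Mm1t (64314) and B2_Mm2 (57686). At the 2-cell stage the libraries overlapped for the neighbours B2_Mm1t and B2_Mm2 and for B1_Mus2 and B3, so their order is not settled. B1_Mm moved from seventh to sixth, past B3.

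From the 2-cell to the 4-cell stage most SINE types rose in control embryos, and the types of the younger B1 and B2 groups rose most. The comparison asks how SINE RNA changed after the 2-cell stage, where the paper places the main wave of genome activation. Of 34 tested types 27 were higher and 1 lower at an adjusted p under 0.05 (quasi-likelihood test of edgeR, adjusted over all features after Benjamini and Hochberg). Among all 24850 features tested 26.6% were higher and 28.1% lower by the same rule. The median log2 fold change was 0.79 over the SINE types and −0.02 over all features. At 2-fold or more the test called 8 types (7 higher, 1 lower), a smaller share than the 44.1% of all features called by that rule.

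B1_Mm, a young B1 type, had 1211 and 1300 CPM in control 2-cell libraries and 6490 and 6036 CPM in control 4-cell libraries. It had the largest fitted rise of the types tested, with a log2 fold change of 2.32 (SE 0.11, edgeR adjusted p = 1.17e-12). B1_Mus2 had 2417 and 2518 CPM at the 2-cell stage and 9810 and 9574 CPM at the 4-cell stage (log2 fold change 1.97, SE 0.11). B1_Mus1 had 2747 and 2918 CPM, then 10134 and 9937 CPM (log2 fold change 1.82, SE 0.11). The libraries of the 2 stages were far apart for each of these B1 types.

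The older B1 types rose less. B1_Mur1 to B1_Mur4, which are shared more widely among rodents, lay between 0.73 and 0.91 on the log2 scale, and B1F, B1F1 and B1F2 lay between 0.74 and 0.91. B1_Mur4 had 839 and 848 CPM in control 2-cell libraries and 1512 and 1656 CPM in control 4-cell libraries. PB1, a proto-B1 element, was at 0.12 (SE 0.30, adjusted p = 0.763) with few counts, while PB1D7, PB1D9, PB1D10 and PB1D11 rose.

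Among the B2 types, which are tRNA-derived, B2_Mm1a had 5734 and 6320 CPM in control 2-cell libraries and 18874 and 16861 CPM in control 4-cell libraries (log2 fold change 1.57, SE 0.15, edgeR adjusted p = 2.86e-06). B2_Mm1t had 3887 and 4361 CPM, then 11960 and 10838 CPM (log2 fold change 1.47, SE 0.14). B2_Mm2 had 3872 and 4113 CPM, then 10330 and 9706 CPM (log2 fold change 1.33, SE 0.11). The older B3 had 3355 and 3123 CPM, then 5451 and 5956 CPM (log2 fold change 0.82, SE 0.08), and B3A had 1037 and 956 CPM, then 1642 and 1789 CPM (log2 fold change 0.78). All 5 types of the family rose, the 3 B2_Mm types past 2-fold.

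The B4 family rose by 0.64 to 0.81 on the log2 scale, with all 4 types past the test. ID_B1 had 1111 and 1030 CPM, then 1685 and 1809 CPM. B4A had 943 and 849 CPM, then 1520 and 1627 CPM. RSINE1 had 832 and 755 CPM, then 1255 and 1307 CPM. The libraries of the stages did not overlap for any of these types.

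MIR elements are ancient and shared among mammals. MIRc had 4.46 and 3.19 CPM in control 2-cell libraries and 7.37 and 8.99 CPM in control 4-cell libraries (log2 fold change 1.10, SE 0.29, edgeR adjusted p = 0.00318). MIR (0.60) and MIRb (0.61) rose as well, and MIR3 was at −0.81 (SE 0.48, adjusted p = 0.159). The ID row rose by 0.81 (adjusted p = 0.00016). ID2 was the type called lower. It had 11 counts in each control 2-cell library and 0 in each control 4-cell library. That is at least 3.45-fold lower against a floor of 3 counts per library. ID2 held 58 counts over all libraries, and its call was lost under some of the settings run.

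**Figure D2:**
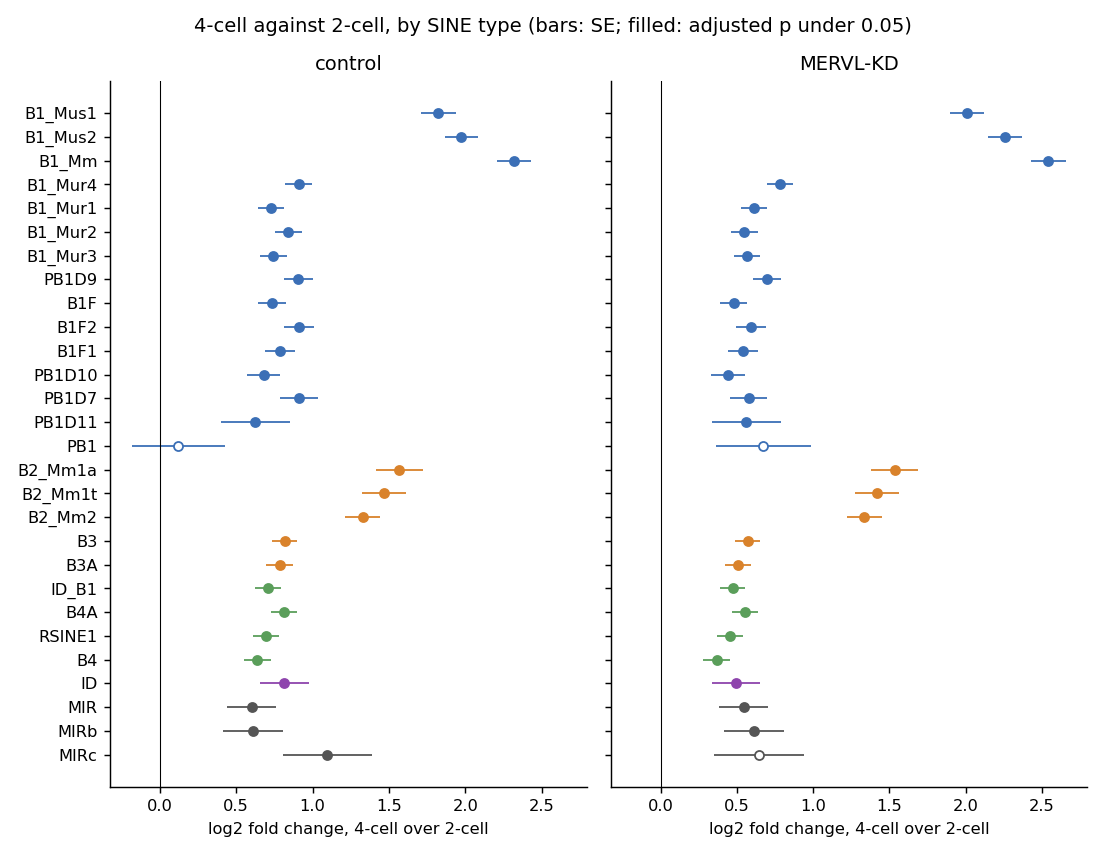
Log2 fold change of 4-cell over 2-cell embryos for the 28 SINE types with at least 50 counts in every library, in control (left) and MERVL-KD embryos (right); bars are standard errors, filled points have an adjusted p under 0.05 and colours mark the families. B1_Mm, B1_Mus1, B1_Mus2 and the 3 B2_Mm types lie to the right of the other well-counted types in both panels.

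Other repeat classes had smaller medians over the same interval, with types called in both directions. The median log2 fold change in control embryos was 0.34 over 130 LINE types (48 higher, 2 lower), 0.30 over 475 LTR types (156 higher, 59 lower) and 0.49 over 155 DNA transposon types (39 higher, 5 lower), against 0.79 over SINE types. With library size alone in place of TMM the median was 0.13 over all features and 0.95 over SINE types.

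The same interval was compared between the MERVL-KD 2-cell and 4-cell libraries, in the same fit of 12 libraries. Of 34 tested types 26 were higher and 1 lower from the 2-cell to the 4-cell stage, against 26.9% of all features higher and 26.8% lower. At 2-fold or more 7 types were called, and 43.1% of all features. B1_Mm rose by 2.54 on the log2 scale (SE 0.11), from 1299 and 1374 CPM to 6632 and 8933 CPM. B1_Mus2 rose by 2.26, from 2456 and 2609 CPM to 10291 and 13920 CPM, and B1_Mus1 by 2.01, from 2974 and 3193 CPM to 10381 and 14430 CPM. B2_Mm1a rose by 1.53, from 6383 and 8265 CPM to 18194 and 24208 CPM. MIR3, with 2.59 and 2.20 CPM at the 2-cell and 1.15 and 0.584 CPM at the 4-cell stage, was the type that fell (log2 fold change −1.46, SE 0.49, edgeR adjusted p = 0.015). The fitted MERVL-KD effect at the 4-cell minus that at the 2-cell stage passed the test for 0 of 34 SINE types with edgeR and for 6 at an unadjusted p under 0.05 (background 2.47% higher and 1.65% lower), and for 0 with DESeq2. With library size alone 16 types were called lower in this difference.

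Ratios within a library do not depend on its scaling. The counts of B1_Mm, B1_Mus1 and B1_Mus2 over those of B1_Mur1 to B1_Mur4 gave 2.40 and 2.61 in control 2-cell libraries, 6.03 and 5.28 in control 4-cell libraries and 6.55 in both control 8-cell libraries. In MERVL-KD the ratio was 2.40 and 2.74, then 6.79 and 8.33, then 6.87 and 6.24. The 2-cell libraries of both conditions were thus lower than all later ones, and at the 4-cell stage both MERVL-KD libraries lay above both control libraries. At the 8-cell stage the 2 conditions overlapped.

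The same ratio for B2, of B2_Mm1a, B2_Mm1t and B2_Mm2 over B3 and B3A, was 3.07 and 3.63 in control 2-cell libraries, 5.80 and 4.83 in control 4-cell libraries and 4.63 and 5.21 in control 8-cell libraries. In MERVL-KD it was 3.33 and 4.24, then 6.33 and 7.63, then 5.21 and 4.61. Control and MERVL-KD overlapped at the 2-cell and 8-cell stages and were apart at the 4-cell stage. These ratios were chosen after the values were seen and were not tested. The 3 young B1 types together also gained on the 3 B2_Mm types, with a ratio of 0.472 and 0.455 in control 2-cell, 0.642 and 0.683 in control 4-cell and 0.927 and 0.814 in control 8-cell libraries.

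**Figure D3:**
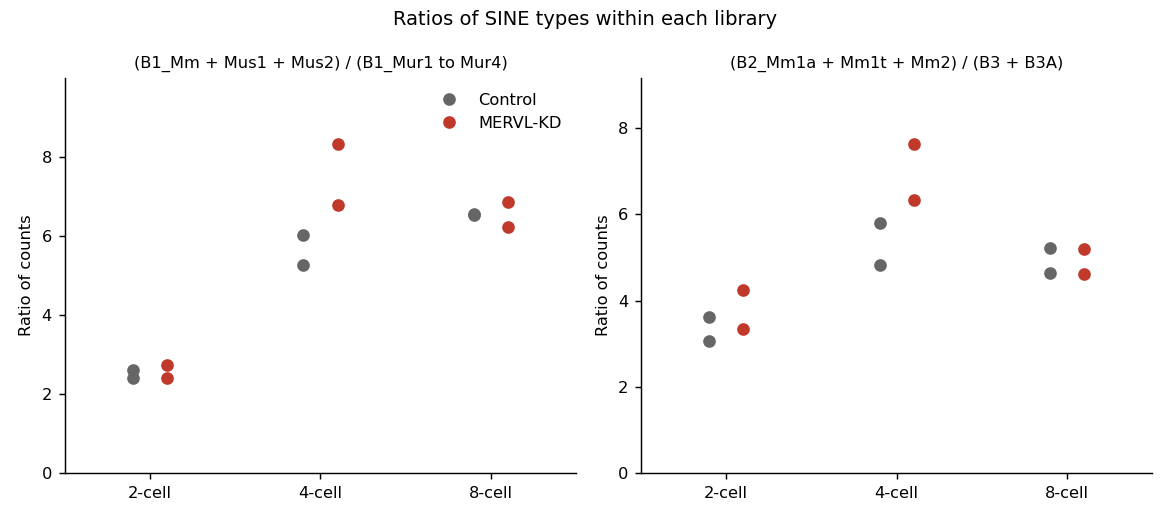
Ratio of the counts of young to older types within each library, for B1 (left) and B2 (right), by stage; each point is a library, grey for control and red for MERVL-KD. The 2-cell points are the lowest in both panels, and the highest point of each panel, 8.33 and 7.63, is a MERVL-KD 4-cell library.

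From the 4-cell to the 8-cell stage of control embryos, 14 of 34 SINE types were lower and 0 higher, against 3.02% of all features lower and 3.12% higher. The median was −0.34 over SINE types and −0.03 over all features. All but B2_Mm2 of the types that passed as lower were older types. The 3 B2_Mm types had log2 fold changes close together, between −0.50 and −0.46, but B2_Mm1a and B2_Mm1t did not pass. B3 fell by 0.37 on the log2 scale (SE 0.08, edgeR adjusted p = 0.0084), to 4408 and 4425 CPM, and B4 fell by 0.43, from 713 and 746 CPM to 542 and 538 CPM. RSINE1 fell by 0.38, to 978 and 990 CPM, and B2_Mm2 by 0.49, to 6965 and 7325 CPM. B1_Mm (−0.08), B1_Mus1 (−0.14) and B1_Mus2 (−0.04) did not pass, and their directions were not the same under median-of-ratios scaling. This count rests on single libraries: it was 0 without control 8-cell replicate 1, 3 without control 8-cell replicate 2, 5 without control 4-cell replicate 1 and 1 without control 4-cell replicate 2, with medians from −0.40 to −0.28. LINE types also moved down here, with 40 of 130 lower and a median of −0.43. The 4-cell and 8-cell pools carry the same day label, so they may differ in pace of development as well as in stage, which was not tested.

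In MERVL-KD embryos 0 of 34 types passed the test from the 4-cell to the 8-cell stage with edgeR (6 at an unadjusted p under 0.05), against 2.22% of all features higher and 2.40% lower. DESeq2 called 2 higher. The median was 0.12, and it was −0.01 with library size alone, where the median of all features was −0.17.

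**Figure D4:**
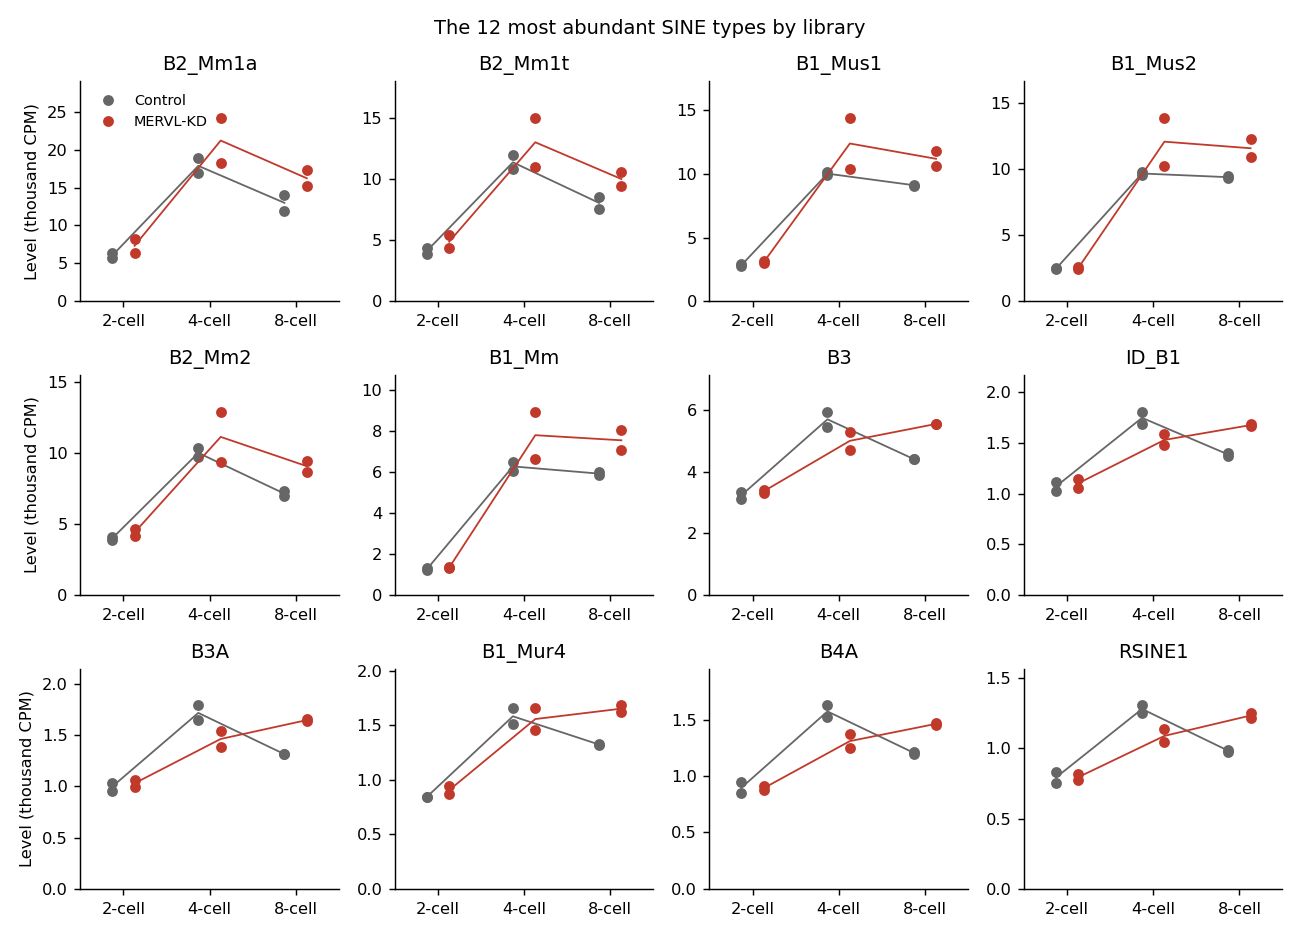
Level (CPM, axes in units of 1000) of the 12 most abundant SINE types by stage, with a point for each library and a line through the group means, grey for control and red for MERVL-KD embryos; axes start at 0. The young B1 and B2 types climb steeply from the 2-cell to the 4-cell stage, and in the 8-cell panels each MERVL-KD point lies above both control points.

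The comparison of MERVL-KD with control embryos asks how SINE RNA responded to the loss of MERVL transcripts. At the 2-cell stage 3 of 33 tested types were higher in MERVL-KD and 0 lower, against 6.74% of all features higher and 7.23% lower, so the share of SINE types called was near the background. All 3 were B2 types of the younger group. B2_Mm1a had 5734 and 6320 CPM in control and 6383 and 8265 CPM in MERVL-KD libraries (log2 fold change 0.36, SE 0.10, edgeR adjusted p = 0.0222). B2_Mm1t had 3887 and 4361 CPM in control and 4332 and 5437 CPM in MERVL-KD (log2 fold change 0.33, SE 0.09, edgeR adjusted p = 0.026). B2_Mm2 had 3872 and 4113 CPM in control and 4192 and 4640 CPM in MERVL-KD (log2 fold change 0.23, SE 0.07, edgeR adjusted p = 0.036). The groups overlapped for B2_Mm1t on this scale and not for the other B2_Mm types.

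The test scaled the 4 libraries of the stage alone, which raised every MERVL-KD value against control by a median of 0.08 on the log2 scale compared with scaling the 12 libraries together. In one fit of the 12 libraries 0 types passed at the 2-cell stage. Leaving out MERVL-KD replicate 2 gave 0 calls and leaving out control replicate 1 gave 1. With library size alone 22 types were called higher, where the median of all features was 0.31 and that of SINE types 0.41, against 0.02 and 0.12 with TMM.

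B1 types did not pass at the 2-cell stage. B1_Mus1 was at 0.21 (SE 0.07, adjusted p = 0.0557), B1_Mm at 0.17 and B1_Mus2 at 0.12, and the B1_Mur types lay between 0.03 and 0.19. The B4 family lay between 0.08 and 0.12. The lower sums of 2-cell and maternal markers in MERVL-KD given above moved with these comparisons, and their part was not tested. Of the 33 types 28 had a fold change above 0. Among other classes 24 of 117 LINE types were higher and 1 lower, with a median of 0.17.

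At the 4-cell stage 0 of 33 types passed with edgeR (12 at an unadjusted p under 0.05), where 4.83% of all features were higher and 5.75% lower, and 0 passed with DESeq2. Among the 28 types with at least 50 counts in every library, the fitted values of the 6 young and of the older types lay on opposite sides of 0, although those of the B1_Mur types reached both sides with library size alone. B1_Mm had 6490 and 6036 CPM in control and 6632 and 8933 CPM in MERVL-KD libraries, a log2 fold change of 0.32 (SE 0.12, edgeR adjusted p = 0.137). B1_Mus1 (0.31), B1_Mus2 (0.33), B2_Mm1a (0.25), B2_Mm1t (0.20) and B2_Mm2 (0.16) were also above 0. B3 had 5451 and 5956 CPM in control and 4708 and 5304 CPM in MERVL-KD (log2 fold change −0.18, SE 0.09, adjusted p = 0.214). B4A had 1520 and 1627 CPM in control and 1247 and 1373 CPM in MERVL-KD (−0.26, SE 0.09, adjusted p = 0.0785). RSINE1 (−0.23), ID_B1 (−0.19), B3A (−0.23) and B1F (−0.26) were below 0 as well. The control and MERVL-KD libraries did not overlap for B3, B4A or B1_Mm.

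The spread between the MERVL-KD 4-cell libraries was large for the young types. Over the 22 types with at least 1000 counts in every library, replicate 2 exceeded replicate 1 in 21, by up to 0.48 on the log2 scale for B1_Mus1, with a median of 0.15. In the other 5 groups the median difference between replicates was between −0.07 and 0.10. Without MERVL-KD replicate 2 the test called 0 types higher and 7 lower, and without replicate 1 it called 6 higher and 0 lower. Without control replicate 1 it called 4 higher and without control replicate 2 it called 1 higher. The median over SINE types was −0.16 and stayed between −0.22 and −0.10 in these fits. LINE (−0.17), LTR (−0.15) and DNA (−0.28) types had medians of similar size.

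At the 8-cell stage SINE types of the B1, B2 and B4 families were higher in the MERVL-KD pools. These pools held only embryos that had reached the 8-cell stage, and the part of the developmental delay in this comparison was not tested. Of 31 tested types 16 were higher and 0 lower, against 1.62% of all features higher and 3.51% lower. The median log2 fold change was 0.32 over SINE types and 0.01 over all features, and none of the 16 reached 2-fold. Higher were 9 of 15 B1 types, 4 of 5 B2 types and 3 of 4 B4 types. The fold changes were close together, from 0.28 to 0.36 among the types that passed.

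B3 had 4408 and 4425 CPM in control 8-cell libraries and 5543 and 5565 CPM in MERVL-KD (log2 fold change 0.34, SE 0.06, edgeR adjusted p = 0.0107), the smallest adjusted p among SINE types. B2_Mm2 had 6965 and 7325 CPM in control and 9466 and 8695 CPM in MERVL-KD (0.35, SE 0.07, adjusted p = 0.0127). B3A had 1315 and 1311 CPM in control and 1636 and 1654 CPM in MERVL-KD (0.33, adjusted p = 0.0171). The groups did not overlap for any of these B2-family types.

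B1_Mm had 5999 and 5826 CPM in control and 8021 and 7047 CPM in MERVL-KD (log2 fold change 0.36, SE 0.07, edgeR adjusted p = 0.0183). RSINE1, of the B4 family, had 978 and 990 CPM in control and 1219 and 1251 CPM in MERVL-KD (0.34, adjusted p = 0.0184). B1_Mur4 had 1322 and 1328 CPM in control and 1685 and 1624 CPM in MERVL-KD (0.33, adjusted p = 0.0197). No library of one condition reached the range of the other for these types.

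The other abundant types behaved alike. B1_Mus1 had 9095 and 9162 CPM in control and 11777 and 10630 CPM in MERVL-KD, and B1_Mus2 had 9483 and 9344 CPM against 12294 and 10919 CPM. B2_Mm1t had 7599 and 8540 CPM against 10620 and 9431 CPM. B2_Mm1a, the most abundant type, had 11940 and 14030 CPM in control and 17286 and 15166 CPM in MERVL-KD, and did not pass (0.33, SE 0.09, adjusted p = 0.0543). ID_B1 had 1403 and 1369 CPM against 1668 and 1683 CPM, and B4A had 1214 and 1200 CPM against 1455 and 1471 CPM. B4 itself was at 0.27 (adjusted p = 0.06). The MIR and ID families had 0 types past the test, with MIR at 0.40 (SE 0.15, adjusted p = 0.168) and ID at 0.34 (SE 0.15, adjusted p = 0.235).

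Other repeat classes at the 8-cell stage had 1 of 118 LINE types higher (median 0.12), 15 of 447 LTR types higher and 13 lower (median 0.17), and 3 of 129 DNA types higher (median 0.23). The number of SINE types called was 0 without control 8-cell replicate 1, 3 without control 8-cell replicate 2 and 7 in one fit of the 12 libraries. The median stayed between 0.29 and 0.33 with each library left out. The 7 markers of the later preimplantation embryo, none of them at 0, summed to 688 and 696 CPM in control and to 491 and 539 CPM in MERVL-KD 8-cell libraries, and their part in these values was not tested.

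**Figure D5:**
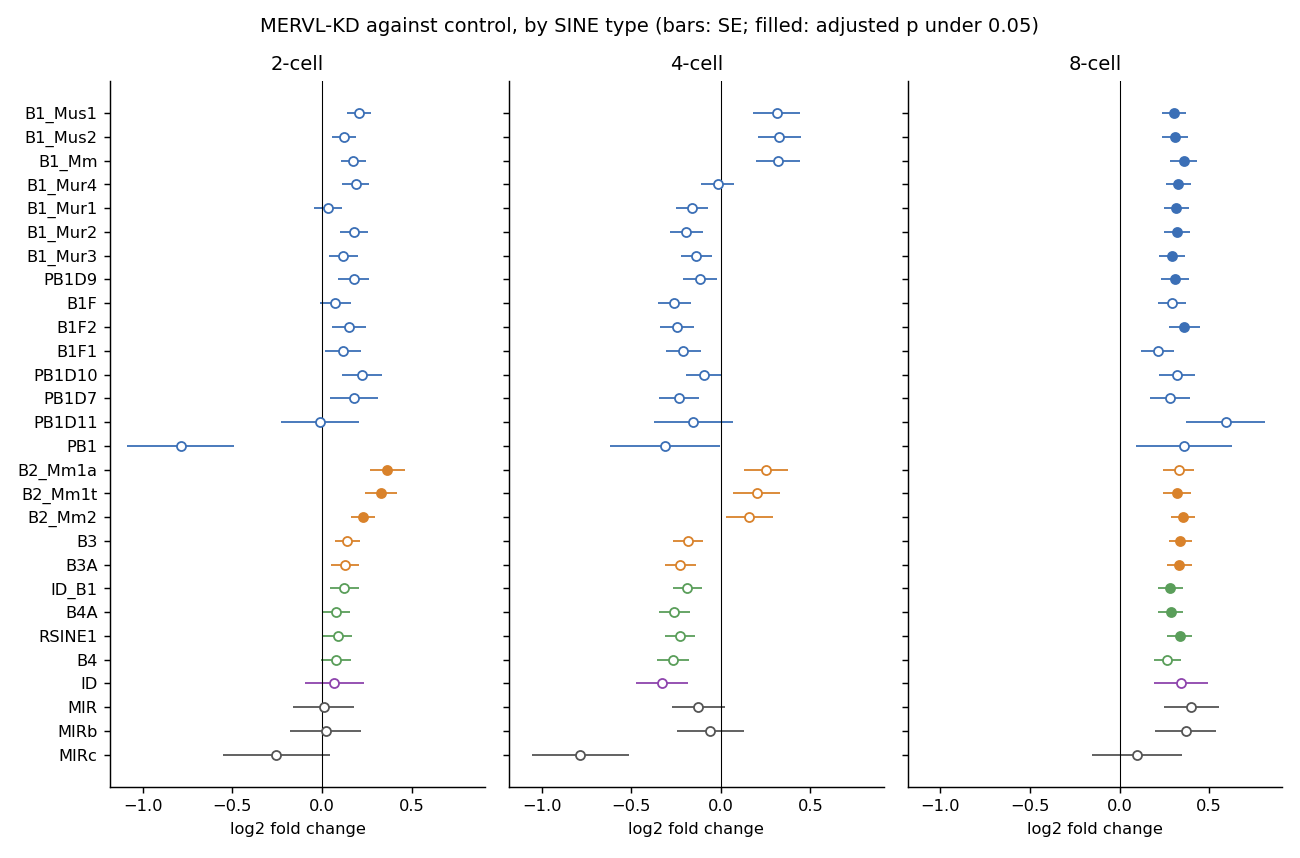
Log2 fold change of MERVL-KD over control embryos at each stage for the 28 SINE types with at least 50 counts in every library; bars are standard errors, filled points have an adjusted p under 0.05 and colours mark the families (blue B1, orange B2, green B4, purple ID, grey MIR). At the 4-cell stage the 6 young types lie right of 0 and the others left of it, and at the 8-cell stage all 28 lie right of 0, with 16 filled.

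The change of the MERVL-KD effect from the 4-cell to the 8-cell stage was tested directly. It passed for 5 of 34 types, all higher at the 8-cell stage, against 0.302% of all features higher and 0.334% lower. They were RSINE1 (difference of log2 fold changes 0.56, SE 0.12, edgeR adjusted p = 0.0349), B3A (0.56, adjusted p = 0.0367), B3 (0.52, adjusted p = 0.0394), B4A (0.54, adjusted p = 0.0416) and B1F2 (0.60, adjusted p = 0.0467). The 6 young types had differences of 0.04 (B1_Mm), −0.01 (B1_Mus1), −0.02 (B1_Mus2), 0.07 (B2_Mm1a), 0.12 (B2_Mm1t) and 0.19 (B2_Mm2), each with an SE between 0.15 and 0.21. The count was 0 without any one of control 4-cell replicates 1 and 2, MERVL-KD 4-cell replicate 1, control 8-cell replicates 1 and 2 and MERVL-KD 8-cell replicate 1. The contrasts of MERVL-KD with control at these stages use the same libraries as this difference.

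Averaged over the 3 stages, 5 of 34 types were higher in MERVL-KD and 0 lower, against 6.53% of all features higher and 10.1% lower. These were B1_Mm (log2 fold change 0.25, SE 0.06, edgeR adjusted p = 0.00781), B1_Mus1 (0.24, adjusted p = 0.0127), B1_Mus2 (0.22, adjusted p = 0.0148), B2_Mm2 (0.21, adjusted p = 0.0276) and B2_Mm1a (0.28, adjusted p = 0.0476). B2_Mm1t had 0.25 (adjusted p = 0.054). The 5 averaged calls became 1 without control 2-cell replicate 1, 3 without control 2-cell replicate 2, MERVL-KD 2-cell replicate 2, control 4-cell replicate 2 or MERVL-KD 8-cell replicate 1, and stayed between 4 and 7 without any other library. Values for older types, such as B3 (0.07), RSINE1 (0.03) and B4A (0.00), were near 0. In none of the contrasts of MERVL-KD with control was a SINE type called at 2-fold or more. The background for that rule was 6.47% (2-cell), 4.46% (4-cell), 1.70% (8-cell), 3.90% averaged, 2.27% for the effect at the 4-cell minus the 2-cell stage and 0.402% for the 8-cell minus the 4-cell stage. Between 4-cell and 8-cell embryos 0 types reached it as well, with a background of 1.55% in control and 1.59% in MERVL-KD.

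Genes that make, bind or regulate SINE RNA were counted in 4 lists. Of 28 genes for RNA polymerase III, its initiation factors and the repressor Maf1, 17 were higher and 5 lower in control 4-cell than 2-cell embryos, against 26.6% and 28.1% of all features, and 18 were higher and 2 lower with library size alone. Polr3c, a subunit of the polymerase, rose by 1.70 on the log2 scale and Polr3g by 1.69, while Polr2k, a subunit shared by the polymerases, rose by 2.07 and Crcp by 1.61. In MERVL-KD none (0) of these genes passed as higher, while 6 passed as lower at the 2-cell stage, 7 lower at the 4-cell stage (of 28) and 1 lower at the 8-cell stage (of 27). Over all features 7.23%, 5.75% and 3.51% were lower at these stages. Polr3a, the largest subunit, had 104 and 132 CPM in control and 56.8 and 53.6 CPM in MERVL-KD 2-cell libraries (log2 fold change −1.01), and Tbp, the TATA-binding protein, was at −0.92. With library size alone 4 of these genes passed as higher and 2 as lower in 2-cell embryos, 4 as lower in 4-cell and 0 in 8-cell embryos.

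Small RNA genes of RNA polymerase III were higher in MERVL-KD 4-cell embryos, in 6 of 8 tested genes with 0 lower, against 4.83% of all features higher, and 5 of 8 were higher under median-of-ratios scaling. Rn7s2 had 96.7 and 86.7 CPM in control and 136 and 158 CPM in MERVL-KD 4-cell libraries (log2 fold change 0.69, SE 0.11, edgeR adjusted p = 0.00233). Rmrp, the RNA of the RNase MRP complex, was at 1.02 and Vaultrc5, a vault RNA, at 0.57. Rn7s1 was at 2.01, from 4.28 and 4.83 to 10.5 and 26.0 CPM, but Rn7s1 and Rn7s2 are near-identical 7SL genes, so the counts of both are uncertain. The MERVL-KD 4-cell replicate 2, which stood apart for SINE types, also lay above replicate 1 for Rn7sk (9532 and 12649 CPM), Bc1 (29.0 and 40.9) and Vaultrc5 (305 and 379). Rny1 (1.54 and 0.642 CPM) and Rny3 (1.76 and 1.11) went the other way. No count of this list with a library left out is given. At the 2-cell stage Rn7s2 was higher (0.96), against 6.74% of all features higher. At the 8-cell stage 0 of 8 passed with edgeR (3 at an unadjusted p under 0.05), against 1.62% of all features higher and 3.51% lower. In control embryos Bc1 rose from 1.75 and 1.62 CPM at the 2-cell to 24.6 and 20.4 CPM at the 4-cell stage (log2 fold change 3.74), beside a change of 0.81 in the ID row.

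Of 7 proteins that bind or process SINE RNA, Srp9, which binds the 7SL-like fold, rose from the 2-cell to the 4-cell stage of control embryos (log2 fold change 1.10), as did the helicase Dhx9 (0.57), and 3 fell, among them the RNA-editing enzyme Adar (−1.09). Scaling by library size alone left 2 higher and 1 lower. Over all features 26.6% were higher and 28.1% lower. In MERVL-KD 1 was higher at the 2-cell stage (Adarb1, 1.06), 1 lower at the 4-cell stage (Adar, −0.62, lost with library size alone, where 0 passed) and 0 passed at the 8-cell stage with edgeR (2 at an unadjusted p under 0.05). Of 13 chromatin factors reported at SINEs, 5 were lower in MERVL-KD at the 2-cell stage, among them Chd4 (−0.64), Cbx1 (−0.75), Hells (−0.43) and Ctcf (−0.32), against 7.23% of all features lower. Scaling by library size alone gave 2 higher and 2 lower. At the 4-cell stage Cbx1 was higher (0.82) and Hells (−0.82) and Ctcf (−0.43) lower, against 2 higher and 1 lower with library size alone, and 0 passed at the 8-cell stage with edgeR (4 at an unadjusted p under 0.05), against 1 higher with library size alone. In control embryos 3 rose and 7 fell from the 2-cell to the 4-cell stage (3 and 5 with library size alone), and 1 rose from the 4-cell to the 8-cell stage, with 2 falling there with library size alone. Over all features 26.6% were higher and 28.1% lower from the 2-cell to the 4-cell stage, and 3.12% and 3.02% from the 4-cell to the 8-cell stage.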

How the data were processed

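The authors made total RNA-seq libraries with the SMART-Seq Stranded kit, which primes with random hexamers and depletes ribosomal fragments. The deposited values are counts for each gene and repeat type, not normalised, made by the authors from reads trimmed with Trim Galore, aligned with STAR 2.5.3a to mm10 and counted with featureCounts (Subread), as the methods and the submitters' processing notes state. Only uniquely aligned reads were counted, which leaves out reads from young, nearly identical copies. Between 71.7% and 74.5% of the rows with 1 to 50 counts held an even number, so most fragments appear to have been counted as 2 mates. Repeat rows carry no coordinates, and reads of SINEs inside genes were not told apart from SINE transcripts. The length of a repeat row was taken as the mean length of a copy. No column belonged to other samples (0 columns).

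Counts were tested in edgeR 4.0.16 (limma 3.58.1, R 4.3.3) with the quasi-likelihood test, filterByExpr, TMM scaling and Benjamini-Hochberg adjustment over all genes and repeat rows. MERVL-KD was compared with control on the 4 libraries of a stage, and stages, differences of effects and the average in a fit of all 12 libraries. Adjusted p-values under 0.05 were called, with and without a 2-fold minimum. DESeq2 1.42.0, other scalings, filters, a replicate block and leaving out each library were the alternatives. The scripts were tested on simulated data. Sequences came from RefSeq on GRCm38, with genes of GENCODE, read in Python 3.11.15 with Biopython 1.88.

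Every SINE row could be named. Values in each library were given for the 12 most abundant rows, for up to 6 called rows per direction, taken by smallest adjusted p, and for those called at 2-fold. A few others were added after their values were seen, as were the ratios of young to older types. The members and gene lists were chosen with earlier results of these data known. The methods call the 2 pools of a group biological replicates, and p-values measure the spread between these pools. Replicates differed beyond sampling noise in every group, the chi-square over its degrees of freedom being at least 14.9. Libraries of the same number did not deviate together (correlation between −0.07 and 0.04 over 13958 features), so the numbers did not pair them.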

Additional observations from a re-analysis of the deposited data

Results flagged for a closer look

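The effect of MERVL-KD differed between the 4-cell and the 8-cell stage for 5 types, by a test of the difference itself in edgeR. The difference of log2 fold changes was 0.52 for B3, 0.60 for B1F2, 0.54 for B4A, 0.56 for B3A and 0.56 for RSINE1, each with a fitted value below 0 at the 4-cell and above 0 at the 8-cell stage. All 5 are older types of the B1, B2 and B4 families. These calls rested on single libraries, as given above for this difference. Over the settings run, with each library left out among them, the fitted differences stayed between 0.44 (B3) and 0.71 (B1F2). In a group of 2 libraries an outlying library cannot be told from its partner.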

How the results depend on the processing

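With library size alone the counts of SINE types called were 22 (MERVL-KD against control at 2 cells, 3 with TMM), 2 (4 cells, 0 with TMM), 23 (control 8-cell against 4-cell, 14 with TMM), 1 (MERVL-KD 8-cell against 4-cell, 0 with TMM), 16 (effect at 4 minus 2 cells, 0 with TMM), 10 (effect at 8 minus 4 cells, 5 with TMM) and 22 (average, 5 with TMM). At 2-fold it called 13 types in control 4-cell against 2-cell embryos, in place of 8. Median-of-ratios factors gave 3 for the average. The effect at 8 minus 4 cells gave 10 with TMM from gene rows, 8 under a minimum of 10 counts per library and 10 with DESeq2. One fit of 12 libraries gave 0 at 2 cells and 7 at 8 cells. A filter of 1 count in any library gave 5 at 4 cells and 3 for MERVL-KD 8-cell against 4-cell, where DESeq2 gave 2. The log2 ratio of the SINE share at 2 cells was 0.51 of all counts and 1.10 of repeat counts. Repeat rows, MERVL-int among them, themselves took a smaller part of all counts in MERVL-KD there, with means of 16.2% against 24.4% in control. The cause of the changed call counts was not tested.

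Leaving out 1 library at a time gave 0 to 4 called types at 2 cells (0 without MERVL-KD replicate 2), 1 to 7 at 4 cells and 0 to 19 at 8 cells (0 without control replicate 1). It gave 0 to 5 for control 8-cell against 4-cell (0 without control 8-cell replicate 1), 0 to 3 for MERVL-KD 8-cell against 4-cell (3 without MERVL-KD 4-cell replicate 1), 0 to 1 and 0 to 8 for the differences of effects and 1 to 7 for the average. At 2-fold it gave 0 to 1 at 4 cells and for the average. The log2 ratio of the SINE share at 4 cells ran from 0.0696 (without MERVL-KD replicate 2) to 0.37. Where 1 library was left in a group, it was assumed to vary like the others.

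With the replicate number as a block the counts were 2, 0 and 18 for MERVL-KD against control at 2, 4 and 8 cells, 28 and 14 for the control stages, 27 and 0 for the MERVL-KD stages, 0 and 5 for the differences of effects and 6 for the average. No call count moved by over 1.5 times under the block, and the shared numbers did not pair the libraries. Of the single types called, 155 values with a library left out and 37 under other settings no longer passed the test, and 297 and 930 kept direction and call. No called value changed direction under the alternatives run. Depth limited the rarest types, which held under 50 counts in every library.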
